A study of Homo sapiens with 2 samples.

Results

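The human aldehyde dehydrogenases described here are 10 genes of the ALDH family, ALDH1A1, ALDH1A2, ALDH1A3, ALDH1B1, ALDH2, ALDH3A1, ALDH3A2, ALDH3B1, ALDH7A1 and ALDH18A1. They were chosen by name, with their counts in both libraries already known, out of 31845 genes listed in the expression table. All 10 had a row in the table, and 9 reached 50 counts in at least 1 library, the minimum used for every count of genes below. Since the counts of both libraries were in view when the genes were chosen, the values of these 10 are a description and carry no test.

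Transcripts were sequenced from 2 lines of Capan-1, an established pancreatic ductal adenocarcinoma line that carries a mutant BRCA2 gene. The olaparib-resistant line was derived from Capan-1 by stepwise exposure to rising olaparib, from 15 nM up to 128 uM, and contributed 1 library. The parental line, bought from a repository, contributed the other library. Both were grown in RPMI1640 medium with serum at 10% and penicillin/streptomycin at 1%, and libraries were made from total RNA with a strand-specific kit. Olaparib inhibits PARP enzymes, which repair breaks in DNA. Whether the resistant line is a clone or a pool, and whether olaparib was in the medium at harvest, is not given in the sources used here. The columns headed with the name of the parental line were taken as parental, and the other pair, under initials that the labels leave unexplained, was assigned to the resistant line by elimination. All directions given here depend on that choice.

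The resistant library held 34507480 counts and the parental library 34572931. With 1 library per line there is no replicate error, so no difference below has a replicate check and no p-value is given. Intervals are 95% intervals for counting error only. The labels also call the cells breast cancer. Epithelial genes were abundant in both libraries, among them EPCAM with 76990 resistant and 43076 parental counts, KRT19 with 51896 resistant and 40864 parental counts, and KRT18 with 34914 resistant and 24652 parental counts. Of the 11 listed epithelial markers, 6 had a ratio above 0 and 5 below it. MUC5AC, CFTR and MUC1 were at least 2-fold lower, MUC5AC with 1169 resistant and 4622 parental counts, CFTR with 2563 resistant and 8946 parental counts and MUC1 with 1399 resistant and 3572 parental counts. Of 11 breast markers, 8 were listed and 4 reached 50 counts, all 4 with a ratio below 0. TFF1 had 4069 resistant and 6978 parental counts, MLPH 760 resistant and 2185 parental counts, GATA3 486 resistant and 1884 parental counts and FOXA1 116 resistant and 141 parental counts. The hormone receptor genes of that list were near 0, ESR1 with 18 resistant and 8 parental counts and PGR with 1 resistant and 4 parental counts. Of 13 markers of stroma, leukocytes and endothelium, 9 were listed, and they summed to 603 counts in resistant cells, against 148 in parental cells. LUM alone gave 523 of the resistant and 35 of the parental counts, and COL1A1 gave 38 of the resistant and 97 of the parental counts. The other 7 listed markers had at most 19 counts in a library, with CD14 at 0 in the resistant library and COL3A1, DCN and VWF at 0 in the parental library. The part of other cells in the differences below was not tested. In such bulk RNA, fewer cells that carry a transcript and less of it per cell cannot be told apart.

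Aldehyde dehydrogenases use NAD or NADP to oxidise aldehydes to carboxylic acids, and so remove reactive products of alcohol, lipid and amino acid metabolism. The ALDH1A enzymes make retinoic acid, the ligand of the retinoic acid receptors, from retinal. High ALDH activity is widely used to sort stem-like cells from pancreatic and other carcinomas, and several of the enzymes clear aldehydes that damage DNA. Only transcripts were measured here, not enzyme activity.

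The retinal-oxidising genes ALDH1A1 and ALDH1A3 and the stress-inducible ALDH3A1 were lower in the resistant library by more than 2-fold, and ALDH3A2 was lower by a smaller amount. The lysine-pathway gene ALDH7A1, the proline synthesis gene ALDH18A1 and the mitochondrial ALDH1B1 were higher, each by less than 2-fold. In counts per 1000000 counts of the library (CPM), the 10 genes together took 505 CPM in resistant cells, against 912 CPM in parental cells. ALDH1A1, ALDH1A3 and ALDH3A1 had the largest differences, at 196 CPM together in resistant cells, against 559 CPM in parental cells. The other 7 genes summed to 309 CPM in resistant cells, against 353 CPM in parental cells. The net difference of the 10 genes was -408 CPM, of which those 3 genes make up 89.0%. The 3 were singled out for being lower by more than 2-fold, and the net offsets the genes that were higher. A large share therefore follows in part from the choice.

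**Figure D1:**
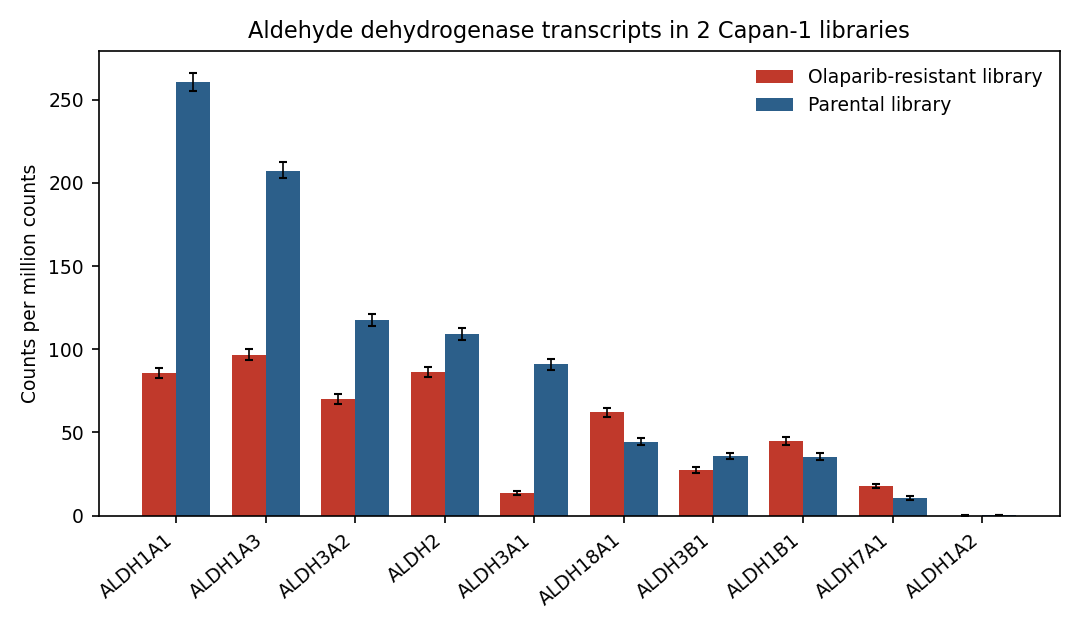
CPM (vertical axis) of each of the 10 ALDH genes in the resistant library (red, left bar) and the parental library (blue, right bar), ordered by the parental value. Error bars are exact 95% binomial intervals for counting error. ALDH1A1 stands at 85.8 CPM in resistant cells, against 261 CPM in parental cells, and ALDH7A1, ALDH18A1 and ALDH1B1 are the genes whose red bar is the taller.

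ALDH1A1, a cytosolic retinal dehydrogenase and the best known ALDH marker of stem-like cells, had 2962 counts in resistant cells, against 9013 in parental cells. Its deposited FPKM values, counts scaled for gene length and for library size, were 39.6 in resistant cells, against 116 in parental cells. After scaling of the libraries with TMM, which centres the ratios of most genes, ALDH1A1 was 3.02-fold lower (counting interval 2.90 to 3.15), a log2 ratio of resistant over parental of -1.60. It was the most abundant member by counts in parental cells and the second, after ALDH1A3, by FPKM. In resistant cells its count was below that of ALDH1A3 and close to the 2975 of ALDH2, with overlapping counting intervals. Counts are not scaled for gene length. Among all 15102 genes that reached 50 counts, 3.22% had a lower ratio.

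ALDH1A3, which also makes retinoic acid and is often the main source of ALDH activity in carcinoma lines, had 3340 resistant and 7172 parental counts. Its FPKM values were 68.1 in resistant cells, against 140 in parental cells. The difference was 2.13-fold (interval 2.05 to 2.22), a log2 ratio of -1.09, and so a smaller one than that of ALDH1A1. The FPKM of ALDH1A1 was 0.581 of that of ALDH1A3 in resistant cells, against 0.824 of it in parental cells.

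ALDH1A2, the main retinal dehydrogenase of the embryo, was hardly present. It had 0 counts in resistant cells, against 10 in parental cells, with FPKM values of 0 (resistant) and 0.037 (parental). With the 0 replaced by a floor of 3 counts, it was 3.31-fold lower, which is not a lower bound. Its counting interval for resistant over parental reached up to 0.449, so a smaller difference is not excluded.

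The start-site windows of ALDH1A1 and ALDH1A3 are shown because these paralogs make the same product and were both lower, and that of ALDH7A1 because it had the highest ratio of the members. Each is the 250 bases before the start of the RefSeq gene, on the named strand of build GRCh38.p14, and 8 of the 10 members matched such a window. ALDH3A1, which had the lowest ratio of the measured members, and ALDH2 had none, so their start sites were not examined. Capitals mark CCAAT (the CCAAT box), GGGCGG (a GC box) and GCGTG (the core bound by the aryl hydrocarbon receptor), on either strand.
ALDH1A1, chr9:72953054-72953303, minus strand: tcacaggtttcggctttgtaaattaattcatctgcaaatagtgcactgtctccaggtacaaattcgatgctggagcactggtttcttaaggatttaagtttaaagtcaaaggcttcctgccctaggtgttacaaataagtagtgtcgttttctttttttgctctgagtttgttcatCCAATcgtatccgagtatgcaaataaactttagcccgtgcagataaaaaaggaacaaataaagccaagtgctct
ALDH1A3, chr15:100879581-100879830, plus strand: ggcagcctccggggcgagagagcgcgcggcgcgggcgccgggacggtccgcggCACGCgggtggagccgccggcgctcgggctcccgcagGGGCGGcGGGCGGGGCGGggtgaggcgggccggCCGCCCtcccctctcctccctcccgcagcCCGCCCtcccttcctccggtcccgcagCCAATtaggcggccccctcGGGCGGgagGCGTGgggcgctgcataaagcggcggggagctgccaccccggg
ALDH7A1, chr5:126595220-126595469, minus strand: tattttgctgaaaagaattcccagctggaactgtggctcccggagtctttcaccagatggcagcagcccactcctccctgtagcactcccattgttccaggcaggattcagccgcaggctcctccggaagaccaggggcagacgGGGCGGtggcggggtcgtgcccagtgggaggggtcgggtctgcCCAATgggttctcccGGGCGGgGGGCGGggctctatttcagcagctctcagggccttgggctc
The ALDH1A1 window had a GC content of 38.4%, against a median of 58.0% over all 35116 windows of this length, and that of ALDH1A3 had 82.4%. Each of these 2 windows held 1 CCAAT, which began 74 bases before the start in ALDH1A1 and 71 bases before it in ALDH1A3. CCAAT occurred in 32.01% of all windows. Among the members it was also found in windows of ALDH7A1, ALDH1A2, ALDH1B1 and ALDH3A2, so it was not particular to this pair. The ALDH1A3 window further held the GC box letters at 6 places, a pair of which overlap by their last and first letter, and the receptor core at 2 places, while the ALDH1A1 window held neither. The GC box letters occurred in 42.6% of all windows and the receptor core in 32.2%. The ALDH7A1 window had a GC content of 64.0% and held 3 GC boxes and 1 CCAAT, which began 63 bases before the start. TATAAA, TGACNNNGC (the core bound by NRF2) and TGANTCA (the AP-1 site) were also searched on both strands and occurred in none of the 3 windows, and in 10.7%, 10.9% and 6.57% of all windows. A match of letters is a description and not a binding site.

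ALDH3A1, a cytosolic enzyme that oxidises aromatic and lipid-derived aldehydes and is induced through the aryl hydrocarbon receptor, had the lowest ratio of the members. It had 468 counts in resistant cells, against 3145 in parental cells, with FPKM values of 3.09 (resistant) and 19.9 (parental). It was 6.68-fold lower (interval 6.06 to 7.37), a log2 ratio of -2.74, and 0.662% of all measured genes had a lower one. Its place among all measured genes by FPKM was at percentile 42.5 in resistant cells, against 81.1 in parental cells.

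ALDH3A2, the fatty aldehyde dehydrogenase of the endoplasmic reticulum, lies beside ALDH3A1 on chromosome 17. It had 2419 resistant and 4066 parental counts and FPKM values of 8.09 (resistant) and 13.0 (parental). The difference was 1.67-fold (interval 1.59 to 1.76), a log2 ratio of -0.74, in the same direction as its neighbour but short of 2-fold. ALDH3B1, a membrane-associated enzyme for lipid-derived aldehydes, had 947 resistant and 1240 parental counts, 1.30-fold lower (interval 1.19 to 1.42). In the ALDH3 group the ratios therefore ran from -2.74 for ALDH3A1 to -0.38 for ALDH3B1, all below 0.

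ALDH2, the mitochondrial enzyme that clears acetaldehyde made from ethanol, had 2975 counts in resistant cells, against 3772 in parental cells. It was 1.26-fold lower (interval 1.2001 to 1.322), a log2 ratio of -0.33, with FPKM values of 19.9 (resistant) and 24.1 (parental). ALDH1B1, a mitochondrial enzyme related to it that also accepts acetaldehyde and retinal, lay on the other side. It had 1550 resistant and 1226 parental counts, 1.27-fold higher (interval 1.18 to 1.37). In counts, ALDH1B1 was 0.521 of ALDH2 in resistant cells, against 0.325 of it in parental cells.

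ALDH7A1, also called antiquitin, oxidises the semialdehyde formed in lysine breakdown and also acts on betaine aldehyde. It had 614 counts in resistant cells, against 360 in parental cells, with FPKM values of 13.7 (resistant) and 7.71 (parental). At 1.72-fold higher (interval 1.51 to 1.96) and a log2 ratio of 0.78, it had the highest ratio of the members, above 90.1% of all measured genes. ALDH18A1, which does not clear aldehydes but reduces glutamate to the precursor of proline in mitochondria, had 2143 resistant and 1540 parental counts. It was 1.40-fold higher (interval 1.311 to 1.497), and its FPKM values were 34.7 (resistant) and 23.9 (parental).

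In resistant cells 3 of the 9 measured members were lower by 2-fold or more, and 0 were higher by as much. A ratio above 0 was found for 3 members and one below 0 for 6, against 51.2% and 48.8% of all measured genes. Over all 15102 measured genes, 8.95% passed the 2-fold size downward, 6.00% passed it upward and 15.0% passed it in either direction. The median log2 ratio of the 9 was -0.38 and that of all measured genes 0.06. The choice of members used these same counts, so the shares are set side by side and nothing is read from them. For each of the 9 the counting interval excluded equal levels, and sequencing depth did not limit these ratios.

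**Figure D2:**
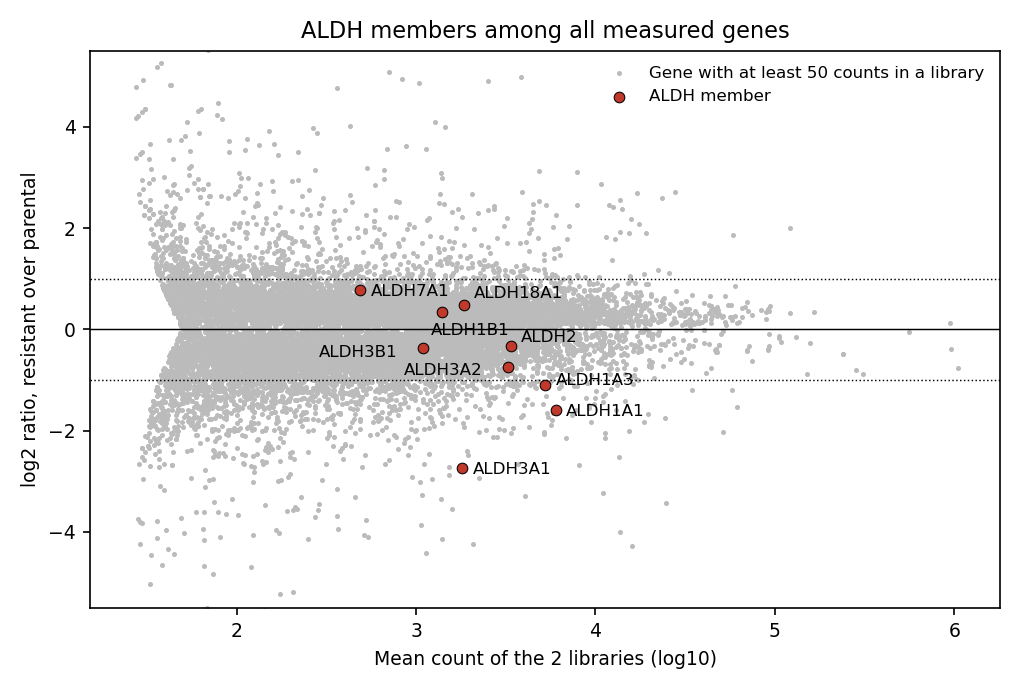
Each grey point is 1 of the 15102 measured genes, placed by the mean count of the libraries (horizontal axis, log10) and by the log2 ratio of resistant over parental (vertical axis), and red points are the 9 measured ALDH genes. Dotted lines mark 2-fold, and 40 genes lie beyond the limits of the vertical axis. ALDH3A1, ALDH1A1 and ALDH1A3 lie below the lower dotted line and no member lies above the upper one.

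The human family has 9 other ALDH genes, which were not among those chosen, and 7 of them were measured. Of these 7, 1 was lower by 2-fold or more and 0 were higher by as much, with a median log2 ratio of -0.59. Over all measured genes 8.95% were lower and 6.00% higher by that size, with a median of 0.06. The number lower depends on the count minimum, at 3 with a minimum of 10 counts and 0 with the largest minimum tried. The shares of all genes at these minimums are not given, so nothing is read from the number. A ratio below 0 was found in 6 of the 7, as in 48.8% of all measured genes. ALDH1L1, a cytosolic folate enzyme, had 41 resistant and 96 parental counts, 2.33-fold lower (interval 1.598 to 3.440). Its mitochondrial counterpart ALDH1L2 had 549 resistant and 806 parental counts, 1.46-fold lower. ALDH6A1, which acts in valine breakdown, had 454 resistant and 910 parental counts and was 1.99-fold lower (interval 1.78 to 2.23), at the edge of the 2-fold size.

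ALDH4A1, the mitochondrial enzyme that completes proline breakdown, had 284 resistant and 498 parental counts, 1.74-fold lower (interval 1.503 to 2.022). ALDH18A1, on the synthesis side of proline, was higher, at a log2 ratio of 0.49. ALDH5A1, which oxidises succinic semialdehyde from GABA, had 1056 resistant and 1600 parental counts, 1.51-fold lower. Its log2 ratio of -0.59 became -0.22 with the trend with gene length removed. ALDH9A1, an enzyme of carnitine synthesis, had 608 resistant and 581 parental counts, and its interval of 0.939 to 1.18 for resistant over parental included equal levels. So did that of ALDH16A1, 0.773 to 1.05, with 314 resistant and 350 parental counts. ALDH3B2 had 9 resistant and 32 parental counts and ALDH8A1 had 16 resistant and 38 parental counts, both under the minimum of 50. Over the whole family, 12 of 16 measured genes had a ratio below 0 and 4 were at least 2-fold lower, beside 48.8% and 8.95% of all measured genes. These counts include the 9 measured members, which were chosen with their counts known.

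**Figure D3:**
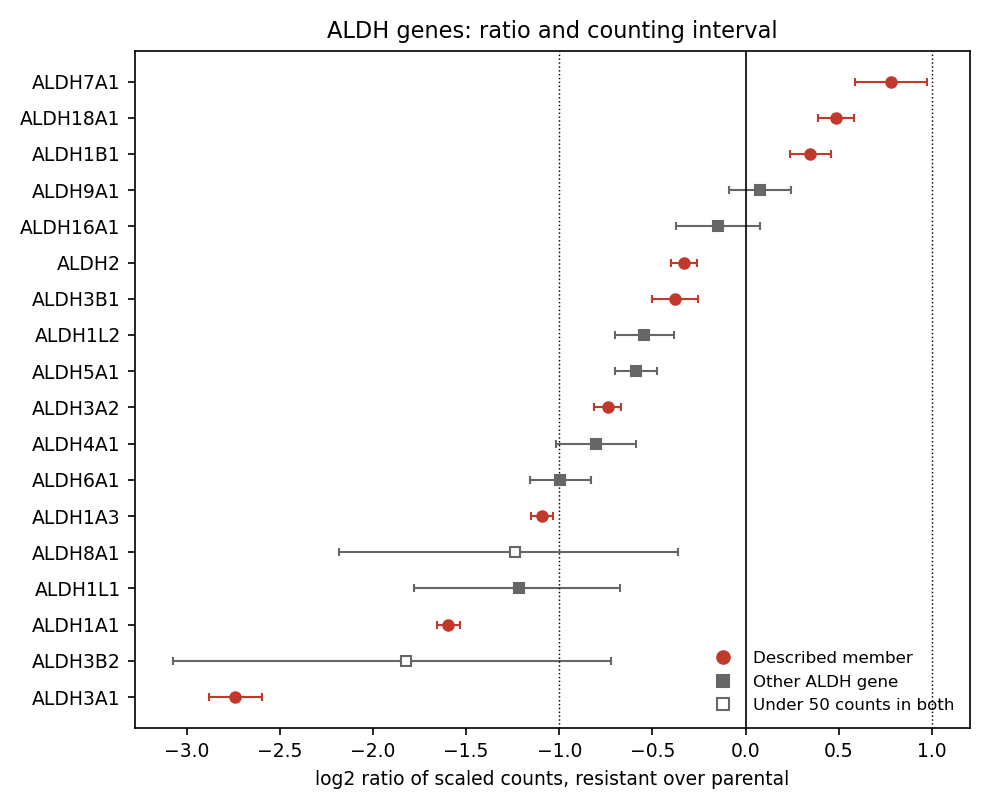
log2 ratio of scaled counts, resistant over parental (horizontal axis), for the 18 ALDH genes with counts in both libraries, with 95% counting intervals as bars. Red circles are the described members, grey squares the other ALDH genes, open squares those under 50 counts in both libraries, and dotted lines mark 2-fold. The intervals of ALDH9A1 and ALDH16A1 cross 0, and ALDH3A1 at -2.74 lies lowest.

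The order of the levels within a library depends on the gene lengths behind the FPKM values. By the deposited FPKM values the order in resistant cells was ALDH1A3, ALDH1A1, ALDH18A1, ALDH2, ALDH7A1, ALDH3A2, ALDH1B1, ALDH3B1, ALDH3A1 and ALDH1A2. In parental cells it was ALDH1A3, ALDH1A1, ALDH2, ALDH18A1, ALDH3A1, ALDH3A2, ALDH7A1, ALDH3B1, ALDH1B1 and ALDH1A2. ALDH2 at 24.1 and ALDH18A1 at 23.9 in parental cells were the 1 pair of neighbours whose counting intervals overlapped. ALDH1A1 and ALDH1A3 held 54.4% of the summed FPKM of the 10 genes in resistant cells, against 72.0% in parental cells.

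The lengths that the FPKM values imply differ from the annotation, however. For ALDH1A3 the implied length was 1479 bases, against 5772 exonic bases in GENCODE release 29 and 3924 in its longest coding transcript. For ALDH7A1 it was 1297 bases, against 17970 and 4964, and for ALDH1B1 7561 bases, against 3155 and 3066. Over 14551 genes the implied length over the GENCODE exonic length had a median of 1.05 and lay between 0.147 and 2.57 for most. ALDH1A3 at 0.256 and ALDH1B1 at 2.40 were inside that range, and ALDH7A1 at 0.0722 was below it. With CPM per kilobase of exonic length in place of the deposited FPKM, ALDH1A1 stood above ALDH1A3, at 30.1 for ALDH1A1 and 16.8 for ALDH1A3 in resistant cells, against 91.5 for ALDH1A1 and 35.9 for ALDH1A3 in parental cells. ALDH7A1 moved to the ninth place of 10 in both libraries. Which of ALDH1A1 and ALDH1A3 was the more abundant is therefore not settled by these files.

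To set each member beside its surroundings on the chromosome, the 10 measured coding genes on each side were taken in GENCODE order, fewer at a chromosome end. The 20 neighbours of ALDH3A1 had a median log2 ratio of 0.21, and all 20 had a higher ratio than ALDH3A1 itself. Its direct neighbours were ALDH3A2 at -0.74 and ULK2 at 1.16. The 20 neighbours of ALDH1A1 had a median of -0.22, with 14 below 0 and 2 at least 2-fold lower, and all 20 had a higher ratio than ALDH1A1. Over all measured genes, 48.8% were below 0 and 8.95% at least 2-fold lower. Of the same genes, 0.662% had a lower ratio than ALDH3A1 and 3.22% a lower one than ALDH1A1. Neighbours with higher ratios were therefore likely in any region, and nothing is read from this order.

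ALDH1A3 lies near the end of the long arm of chromosome 15, where most neighbouring genes had a ratio below 0 as well. Its 17 neighbours had a median of -0.50, with 14 below 0 and 4 at least 2-fold lower, and 3 had a lower ratio than ALDH1A3. Over all measured genes 48.8% were below 0 and 8.95% at least 2-fold lower, with a median of 0.06. ALDH7A1 was higher than all 20 of its neighbours, whose median was 0.29, with 5 below 0. ALDH1B1 was higher at 0.35 among neighbours with a median of -0.24, and ALDH18A1 at 0.49 among neighbours with a median of -0.03. ALDH2 and ALDH3B1 were lower among neighbours whose medians were 0.16 and 0.28. DNA copy number was not measured in these files.

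**Figure D4:**
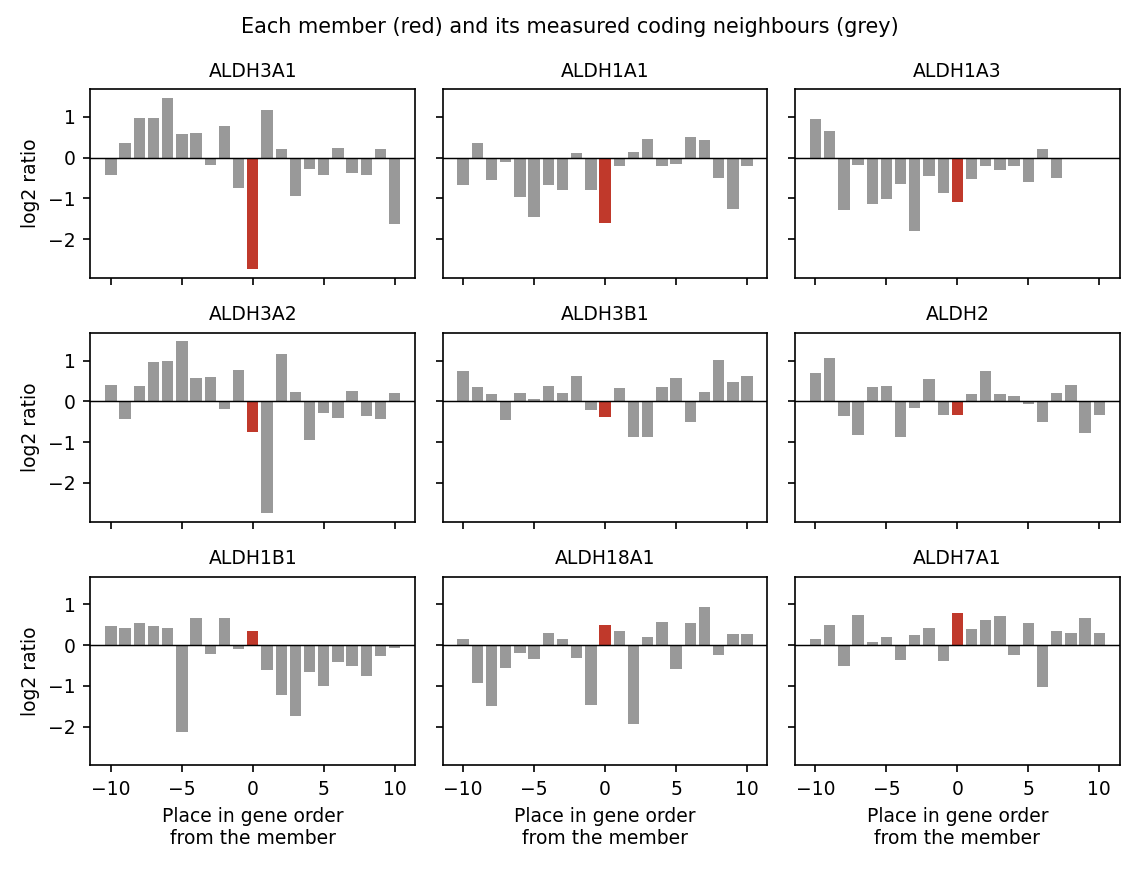
Each panel shows the log2 ratio of resistant over parental (vertical axis) of 1 ALDH gene (red, place 0) and of up to 10 measured coding genes on each side in gene order (grey, horizontal axis). Panels run from the lowest ratio, ALDH3A1, to the highest, ALDH7A1. ALDH3A1 at -2.74 stands below all of its neighbours, while ALDH1A3 at -1.09 lies among neighbours of which 14 of 17 are below 0. Of all measured genes, 48.8% are below 0.

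Reads that fit more than 1 gene could blur some members. Of the 50-base stretches of the GENCODE transcripts of ALDH1A1 and ALDH18A1, 0 occur in transcripts of another gene, on either strand. For ALDH3A1 the share was 1.25%, for ALDH3A2 0.212%, for ALDH1B1 0.507%, for ALDH3B1 1.30% and for ALDH7A1 2.69%, part of the last in the pseudogene ALDH7A1P1. ALDH1A3 shared 24.3%, nearly all with the antisense gene AC015712.2 on the opposite strand, which had 1202 resistant and 2145 parental counts. ALDH2 shared 9.45%, most with an overlapping gene on the same strand, AC002996.1, which had 1158 resistant and 1463 parental counts. Whether strand was used in counting is not given in the sources used here, so the counts of ALDH1A3 and ALDH2 are less certain than those of ALDH1A1. Among the other family members ALDH4A1 shared 37.6% with an overlapping gene on the same strand, and its value is uncertain.

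Most measured genes around the retinal-oxidising enzymes had a ratio below 0. Of 28 listed genes of retinoid uptake, storage, signalling and breakdown, 18 were measured, with 4 lower and 1 higher by 2-fold or more and a median log2 ratio of -0.61, against 8.95% lower and 6.00% higher over all measured genes. A ratio below 0 was found in 14 of the 18, and one above 0 in 4, against 48.8% and 51.2% of all measured genes. STRA6, the cell-surface receptor for retinol bound to its carrier, had 38 resistant and 237 parental counts, 6.20-fold lower. DHRS9, a retinol dehydrogenase that supplies retinal, had 11 resistant and 63 parental counts, 5.69-fold lower (interval 2.974 to 11.97). RARRES1, a gene induced by retinoids, had 590 resistant and 3323 parental counts, 5.60-fold lower. The retinoic acid receptor gene RARG had 525 resistant and 1283 parental counts, 2.43-fold lower. RARB, a retinoic acid receptor that is itself a retinoid target, went the other way, with 1879 resistant and 421 parental counts, 4.49-fold higher. RARRES1 and RARB are known retinoid targets, and their ratios had opposite signs.

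ALDH3A1 is a classical target of the aryl hydrocarbon receptor. Of 11 listed genes of that pathway, 9 were measured, with 2 lower and 0 higher by 2-fold or more and a median of -0.57, against 8.95% lower and 6.00% higher over all measured genes. With the trend of the ratios with gene length removed, 1 was lower. CYP2S1 had 287 resistant and 937 parental counts, 3.24-fold lower, and CYP1B1 had 616 resistant and 1334 parental counts, 2.15-fold lower, both cytochrome P450 genes induced by the receptor. CYP1A1, the target most often used to read the receptor's activity, had 46 resistant and 58 parental counts. ALDH3A1 differed by more than any of the 9 measured genes of this list.

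Other enzymes that handle aldehydes went both ways. Of 22 listed alcohol dehydrogenases, aldo-keto and carbonyl reductases and related enzymes, 16 were measured, with 3 higher and 1 lower by 2-fold or more and a median of 0.35, against 6.00% higher and 8.95% lower over all measured genes. The direction depends on the count minimum. With a minimum of 10 counts 3 were higher and 4 lower with a median of -0.13, and with none 4 were higher and 4 lower with a median of -0.06. The shares of all genes at these minimums are not given. AKR7A3, an aldo-keto reductase that reduces aflatoxin aldehydes, had 1274 resistant and 108 parental counts, 11.9-fold higher. CBR3, a carbonyl reductase, was 2.94-fold higher with 251 resistant and 86 parental counts, and AKR1C1 was 2.14-fold higher with 1604 resistant and 754 parental counts. AKR1B1, aldose reductase, was 2.11-fold lower with 3263 resistant and 6943 parental counts. AKR1C1 has close paralogs that can share reads, and its value is uncertain.

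In the pathways of ALDH18A1 and ALDH4A1, 12 of 13 listed proline, glutamate and arginine genes were measured, with 1 higher and 3 lower by 2-fold or more and a median of -0.24. Over all measured genes, beside which this list and the next 2 are set, 6.00% were higher and 8.95% lower, with a median of 0.06. PRODH, the first enzyme of proline breakdown, had 151 resistant and 38 parental counts, a log2 ratio of 1.97 (interval of the fold 2.79 to 5.87). ASS1, ARG2 and ASNS were 2.61-fold, 2.43-fold and 2.23-fold lower. Of 10 genes of lysine, choline and betaine metabolism, 6 were measured, and AASS, the enzyme that opens lysine breakdown upstream of ALDH7A1, was 2.05-fold lower with 484 resistant and 998 parental counts. ALDH7A1 and AASS thus had ratios of opposite sign. Of 12 genes that make or remove lipid aldehydes, all 12 were measured, with ALDH3A2 and ALDH3B1 acting in the same chemistry. ALOX5 was 3.30-fold lower with 886 resistant and 2947 parental counts, and ALOX15 was 3.18-fold higher with 60 resistant and 19 parental counts. That list had a median of -0.29.

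**Figure D5:**
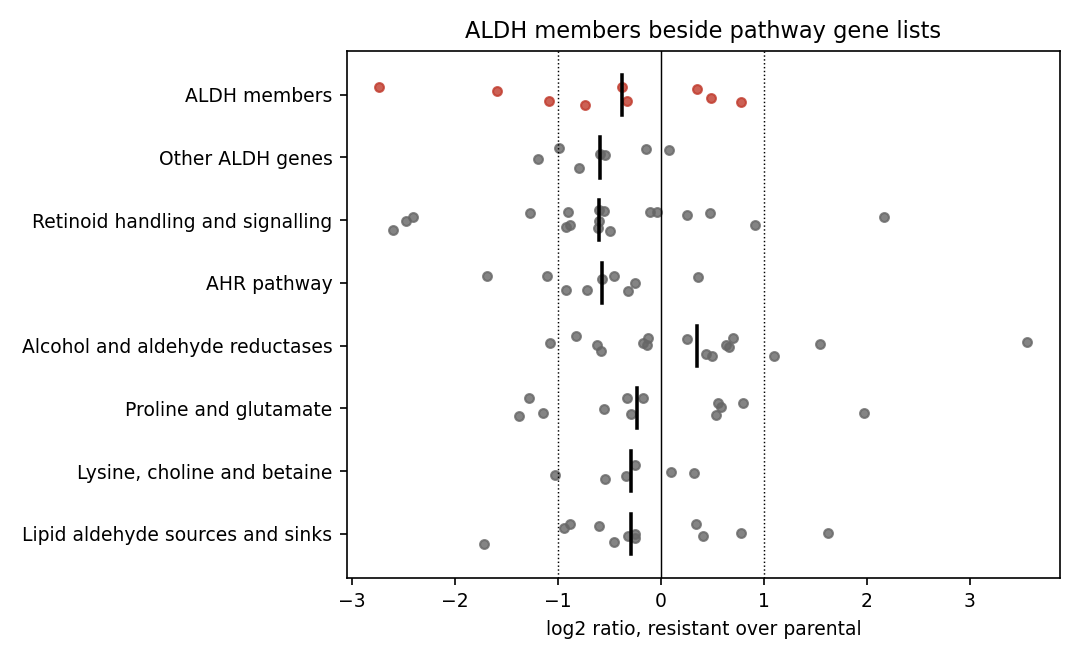
log2 ratio of resistant over parental (horizontal axis) of each measured gene in the ALDH members (red) and in the other gene lists (grey), with the median of each list as a black bar and 2-fold as dotted lines. The alcohol and aldehyde reductases have a median of 0.35, which is -0.13 with a minimum of 10 counts and -0.06 with none, while the ALDH members stand at -0.38, the other ALDH genes at -0.59 and the retinoid genes at -0.61.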

How the data were processed

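RNA was sequenced from 2 libraries, 1 per line. The deposited table gives, per the file headers, a count and an FPKM value per Ensembl gene and library. The counts as deposited are whole numbers that are not normalized, and the FPKM values are the authors' own, deposited without the lengths behind them. The submitters' processing notes name RSEM 1.2.3 and the build hg19 without a role. Neither the annotation nor the strand setting is given in the sources used here.

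Symbols came from a gene name table and GENCODE release 29, which named 29719 of 31845 identifiers. GENCODE describes another build, so it served only for names, lengths, gene order and shared sequence, and start-site windows are those of RefSeq on GRCh38.p14. Libraries were scaled with TMM in edgeR 4.0.16 under R 4.3.3. log2 ratios used a prior of 1 count, folds are plain scaled ratios, and a fold against 0 counts used a floor of 3 counts per library. A gene was called at a 2-fold difference or more where either library had 50 counts, a size rule that stands in for a test. Intervals are exact conditional (Clopper-Pearson) 95% intervals, and since reads without molecular identifiers are not independent molecules they cover counting error only. The ratio, size rule and interval calculations were tested on simulated counts with counting error alone, scaled by total count. Neither TMM scaling nor variation between cultures was tested in that way. Named genes were all ALDH genes and, from each pathway list, up to 4 past the size rule with the largest difference. CYP1A1, RARG and the overlapping and marker genes were named after their values were seen. The members and lists were chosen with earlier results of these data known. Alternatives covered scaling, prior count, count minimum, fold size, deposited FPKM, the trend with gene length and, added after seeing the data, gene lengths from GENCODE. Python 3.11.15, pandas 2.3.3, scipy 1.17.1, statsmodels 0.14.6 and matplotlib 3.10.9 were used.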

Additional observations from a re-analysis of the deposited data

How the results depend on the processing

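No paired analysis was possible because each line has 1 library. For the same reason no library could be left out. Over 8 alternatives of scaling, prior count, deposited FPKM and length trend, 67 of 72 member ratios stayed within their counting interval, 0 changed sign and 0 crossed 2-fold. ALDH1A1 ranged from -1.61 to -1.52, ALDH1A3 from -1.11 to -1.02, ALDH3A1 from -2.75 to -2.67 and ALDH7A1 from 0.73 to 0.85. Among the other ALDH genes 53 of 56 values stayed within their counting interval. With the length trend removed ALDH5A1 was at -0.22, ALDH4A1 at -0.56 and ALDH1L2 at -0.37, outside their intervals. The value crossed 2-fold in 2 of the 56, both of them ALDH6A1 under median of ratios scaling and scaling on protein-coding genes alone. The median over all genes moved by at most 0.07 under any of them.

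The members' median log2 ratio was -0.56 with a minimum of 10 counts or none, since ALDH1A2 then enters, and the mean was -0.58. At 1.5-fold, 1 member was higher and 4 were lower, and at 4-fold 0 were higher and 1 was lower. With a minimum of 10 counts or none, 4 were lower. The shares of all genes at these other sizes and minimums are not given, so nothing is read from these counts. With the length trend removed, ALDH1B1 was at 0.54 and ALDH3A2 at -0.49, outside their counting intervals. Over the 7 gene lists other than the members, 6 genes were higher and 13 lower. These lists held 7, 18, 12, 16, 9, 6 and 12 measured genes, and over all measured genes 6.00% were higher and 8.95% lower. The lists were written with earlier results known, so nothing is read from the counts. These became 10 and 24 with no count minimum, 13 and 29 at 1.5-fold and 2 and 3 at 4-fold, and 22 were lower with a minimum of 10 counts. These counts follow in part from the thresholds themselves, and the shares of all genes at the changed thresholds are not given. AASS was within 2-fold with the upper quartile, deposited FPKM or length trend alternatives, and the aryl hydrocarbon receptor list kept 1 gene at least 2-fold lower with the length trend removed.

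With lengths from GENCODE exons, ALDH1A1 over ALDH1A3 was 1.80 in resistant cells and 2.55 in parental cells, and the pair held 44.3% of the members' level in resistant cells, against 60.9% in parental cells. With the longest coding transcript the ratio was 1.65 in resistant cells, against 2.34 in parental cells, and the share 44.8% in resistant cells, against 57.9% in parental cells. The planned comparison of the members' proteins was not run.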
